A study of Mus musculus with 24 samples.

Results

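Solute carriers are the membrane proteins that move sugars, amino acids, lactate, ions, metals, vitamins, nucleosides and fatty acids across the plasma membrane and into organelles. On this mouse array they were taken to be the probe sets whose annotation gives a single gene symbol that starts with Slc, the organic anion carriers with Slco symbols included. The rule found 188 probe sets among 12422 that are not controls, for 154 of the 8251 genes named alone by a probe set. A further probe set names several genes, among them a solute carrier, and was left out. Slc9a3r1 and Slc9a3r2, which are scaffold proteins, and Slc4a1ap, an adaptor protein, are members by symbol but do not carry solutes themselves.

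The study followed C2C12 cells, an established line of mouse myoblasts that withdraw from the cell cycle and fuse into myotubes when their medium is changed. Total RNA was hybridised to 24 Affymetrix oligonucleotide arrays, 3 for each of 8 days. Cells on day -2 and day -1 were proliferating, cells on day 0 were confluent when differentiating medium was added, and cells on days 2, 4, 6, 8 and 10 had spent that many days in it. Every group is the same line with no transgene or added agent named. The composition of the medium is not given, and the labels do not say whether day 0 cells were taken before or after the change, nor whether replicates were separate cultures, so p-values measure the spread between these arrays.

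Carriers fall into families by substrate. Exchangers of the Slc4 and Slc8 series and cotransporters of the Slc12 series set the pH, calcium and chloride of the cell. Some Slc7 amino acid carriers, Slc7a5, Slc7a6 and Slc7a7 among them, pair with the heavy chain Slc3a2, which brings them to the cell surface. Slc6 carriers use the sodium gradient to take up taurine, creatine and glycine. Slc25 carriers link the cytosol to the mitochondrial matrix. In muscle, Slc2a4 (GLUT4) is the glucose carrier that insulin moves to the surface, and Slc27a1 takes up fatty acids.

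Of the 188 probe sets, 125 of 109 genes were bright enough to be tested, with a mean above 277.7 units of deposited intensity on at least 1 day. The other 63 had a highest daily mean of 30.0 to 253 units, with a median of 132 units. They include both probe sets of Slc2a4, whose daily means were 53.6 to 141 units and 54.5 to 132 units, and those of the glutamine carrier Slc1a5, the cystine carrier Slc7a11 and the zinc exporter Slc30a1. These 63 were left out of the fit by this threshold, so whether they changed was not tested. Values below 77.0 units were raised to that floor, and changes are in log2 units with their standard error (SE) from a limma fit across the 8479 tested probe sets.

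Among those tested, 57 solute carrier probe sets of 54 genes differed among the 8 days (F test, Benjamini-Hochberg adjusted p under 0.05). That is 45.6% of the tested carriers, beside 55.2% of all tested probe sets. Their highest and lowest daily means lay at least 2-fold apart for 31 of the 57 and at least 4-fold apart for 7, with a median range of 1.07 in log2 units, beside 1.14 for all 4678 probe sets past the same test. By day of the highest mean, 12 (21.1%) peaked on day -2, 11 (19.3%) on day 0, 10 (17.5%) on day 4 and 7 (12.3%) on day 10, beside 26.1%, 15.7%, 9.92% and 11.4% of all probe sets past the F test.

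Day 0 against day -2, the approach to confluence, gave 17 carriers higher and 16 lower, 26.4% of those tested, beside 32.6% of all probe sets (16.5% higher and 16.1% lower). Day 2 against day 0, the first days in differentiating medium, gave 15 higher and 13 lower, 22.4% beside 21.6% (11.2% higher and 10.4% lower). Later, day 10 against day 2 gave 8 higher and 5 lower, 10.4% beside 13.8% (6.53% higher and 7.27% lower). Over the whole course, day 10 against day -2 gave 31 higher and 19 lower, 50 of the 125, beside 44.6% (22.3% higher and 22.4% lower). Median changes over the tested carriers were -0.01, 0.04, 0.01 and 0.07, beside 0.01, 0.00, 0.00 and 0.04 over all tested probe sets. The first of these comparisons shares the day 0 arrays with the second, so a carrier that is low or high on those 3 arrays alone takes opposite signs in the pair.

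**Figure D1:**
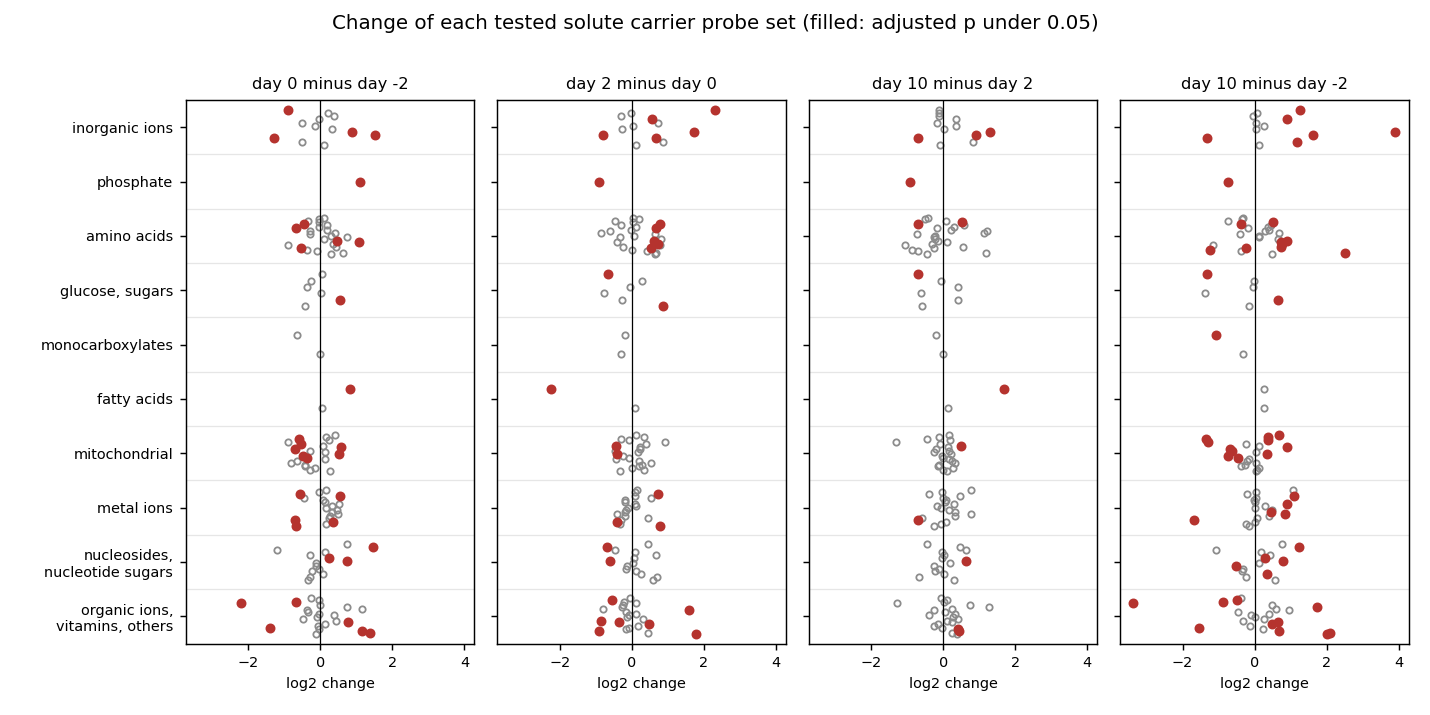
Each point is 1 of the 125 tested solute carrier probe sets, placed by its log2 change in 4 comparisons between days (x axis) and by substrate family (y axis). Filled points passed the adjusted p threshold of 0.05 (33, 28, 13 and 50 from left to right), and the point furthest to the right in the last panel is Slc4a3 at 3.91.

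The arrays came from 5 chip lots and were scanned on 11 days, and no scan day held arrays of both day 0 and day -2. With scan day as a factor in the fit, 4 carriers passed in day 0 against day -2, 13 in day 2 against day 0, 5 in day 10 against day 2 and 36 in day 10 against day -2, in a fit that left 6 residual degrees of freedom in place of 16. Of the 110 calls of named carriers none changed sign under this or the other alternatives. Genes outside the carriers were not followed through the alternatives, so their adjusted p values are from the main fit alone. Where a call below is said to be lost without an array, other alternatives could end it as well. Within the chip lot that held 10 arrays, and over the remaining arrays, the direction was the same in both for 33 of 33, 28 of 28, 13 of 13 and 49 of 50 called carriers (Slc7a5 being the exception), beside 2756 of 2761, 1829 of 1830, 1169 of 1170 and 3767 of 3783 called probe sets of all. These are the arrays that made the calls, with 1 or 2 per day on each side, so the shares are a description and no check of the calls. From day -2 to day 0, 9 of 10 myoblast and myotube markers rose, beside 16.5% of all tested probe sets. The remaining marker, the myogenic transcription factor Myf5, fell by 1.19 ± 0.27 (adjusted p = 0.00112). The mean of Myog, also a myogenic transcription factor, went from 423 to 20100 units.

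The 4 promoters that follow belong to carriers with some of the largest changes below, chosen after their values were seen: the anion exchanger Slc4a3, the phosphate carrier Slc20a1, the nucleoside carrier Slc29a1 and the fatty acid carrier Slc27a1. Each window runs from 250 bases before an annotated start to 50 bases after it, from RefSeq on GRCm38.p6. Where a gene had several windows, the one with most matches is shown, or the first of equals. Capitals mark matches to 3 motifs searched on both strands, the myogenic E-box CAGCTG, the MEF2-type motif (CTA, then NNNN, then TAG) and the amino acid response type motif TGATGNAA.
Slc4a3, chr1:75546212-75546511, + strand: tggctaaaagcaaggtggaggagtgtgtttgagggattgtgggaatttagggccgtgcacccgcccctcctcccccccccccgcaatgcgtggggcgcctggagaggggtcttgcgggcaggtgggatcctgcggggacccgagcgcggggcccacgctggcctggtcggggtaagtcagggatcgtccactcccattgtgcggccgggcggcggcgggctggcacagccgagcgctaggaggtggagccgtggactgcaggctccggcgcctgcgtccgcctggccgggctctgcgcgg
Slc20a1, chr2:129198523-129198822, + strand: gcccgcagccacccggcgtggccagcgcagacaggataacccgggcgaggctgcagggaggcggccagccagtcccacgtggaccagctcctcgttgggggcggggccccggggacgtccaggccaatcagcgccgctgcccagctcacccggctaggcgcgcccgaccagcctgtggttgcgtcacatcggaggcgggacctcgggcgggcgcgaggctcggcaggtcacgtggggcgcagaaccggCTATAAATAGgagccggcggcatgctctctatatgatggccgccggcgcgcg
Slc29a1, chr17:45599569-45599868, - strand: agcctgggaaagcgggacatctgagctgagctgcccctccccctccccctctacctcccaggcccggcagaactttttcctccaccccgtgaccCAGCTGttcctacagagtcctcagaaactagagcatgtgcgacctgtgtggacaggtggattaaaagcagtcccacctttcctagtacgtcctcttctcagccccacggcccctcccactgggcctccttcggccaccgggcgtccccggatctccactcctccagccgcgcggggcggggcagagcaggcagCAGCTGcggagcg
Slc27a1, chr8:71568621-71568920, + strand: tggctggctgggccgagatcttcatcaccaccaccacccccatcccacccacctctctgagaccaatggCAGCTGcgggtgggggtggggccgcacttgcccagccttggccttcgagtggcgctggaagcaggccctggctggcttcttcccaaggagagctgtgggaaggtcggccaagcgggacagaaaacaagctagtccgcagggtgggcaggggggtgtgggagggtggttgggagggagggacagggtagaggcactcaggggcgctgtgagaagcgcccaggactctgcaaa
No match lies in the Slc4a3 window, 1 MEF2-type match in that of Slc20a1, 2 E-boxes in that of Slc29a1 and 1 E-box in that of Slc27a1. The match in Slc20a1 also holds TATAAA, the core of a TATA box. In windows not shown, the E-box also stood for Slc20a1 and the MEF2-type motif for Slc29a1. Over the 41 genes past the F test that have a window, the E-box stood in 15 of 69 windows (21.7%), beside 16.3% of all 32851 windows. The MEF2-type motif stood in 5 of the 69 (7.25%), beside 3.69%, and the amino acid response type motif in 3 (4.35%), beside 3.97%. A match describes letters and not a bound site.

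**Figure D2:**
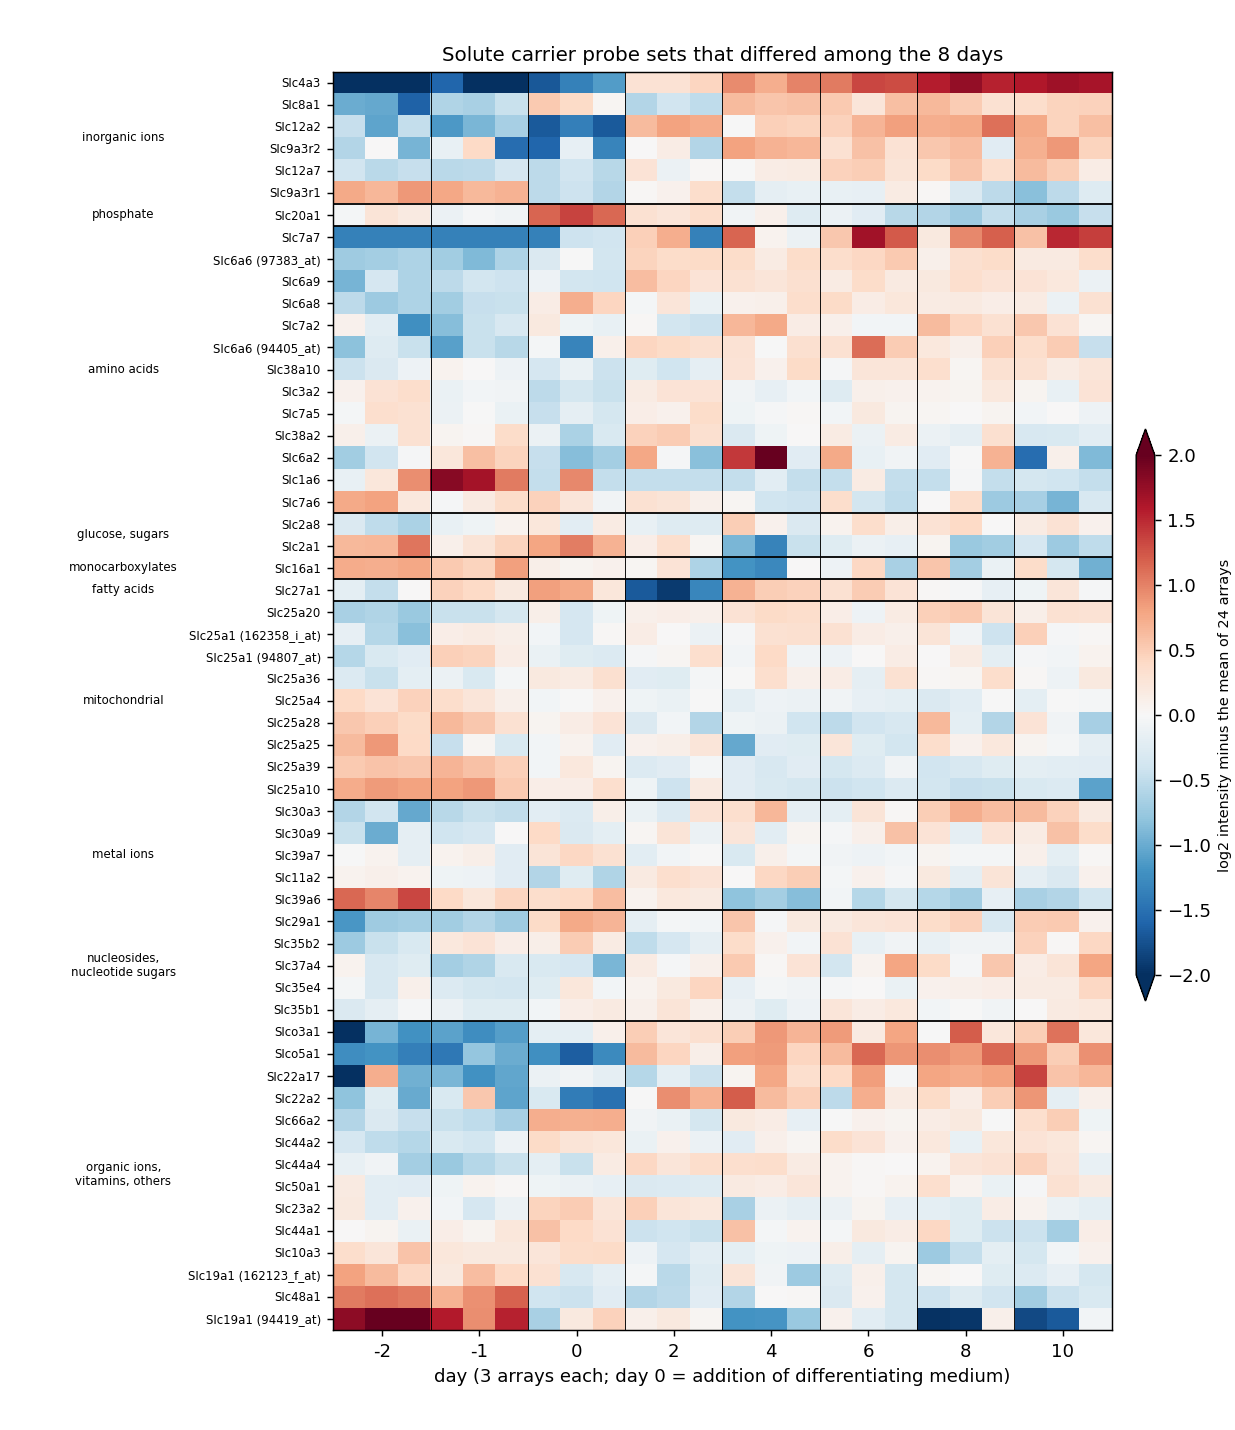
Rows are the 57 solute carrier probe sets that differed among the 8 days, grouped by substrate family, and columns are the 24 arrays in order of day. Colour gives the log2 intensity of an array minus the mean of that probe set over all arrays, in log2 units, and is saturated past 2. Slc4a3 goes from blue to red across the days, Slc20a1 is red on the 3 day 0 arrays, and Slc27a1 is blue on the 3 day 2 arrays.

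Ion carriers held the widest change of all. Of 22 probe sets in the Slc4, Slc8, Slc9, Slc12 and Slc26 series 12 were tested and 6 differed among the days, 4 of them true carriers. The 6 of 12 stand beside 55.2% of all tested probe sets, so as a group these series did not change more often. Slc4a3, a chloride-bicarbonate exchanger of excitable tissues, read 659, 810.2 and 699 units on day -2 and 1067, 1356 and 1596 on day 0. It then read 4217, 4231 and 4641 units on day 2 and 10472, 11212 and 10840 on day 10. No array of a later one of these 4 days was below an array of an earlier one, and the means of days 4, 6 and 8 were 6413, 8124 and 10622 units. The rise was 0.88 ± 0.17 (SE) from day -2 to day 0 (adjusted p = 0.000191), 1.72 ± 0.17 from day 0 to day 2 (2.51e-08) and 1.31 ± 0.17 from day 2 to day 10 (7.15e-06). From day -2 to day 10 it was 15.1-fold, a log2 change of 3.91 ± 0.17 (adjusted p = 3.65e-15). These 4 calls passed in every alternative fit, scan day included.

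Slc12a2, the sodium-potassium-chloride cotransporter that loads cells with chloride and sets their volume, followed another course. Its arrays read 3029, 2007 and 2997 units on day -2, 1310, 1623 and 1298 on day 0, 6504, 7287 and 6986 on day 2 and 7081, 5680 and 6362 on day 10. Each day 0 array lay below each day -2 array, and the day 2 and day 10 arrays lay above both and overlapped each other. It fell by 0.91 ± 0.17 into day 0 (adjusted p = 0.000138), then rose 4.93-fold by day 2 (2.30 ± 0.17, adjusted p = 1.99e-10), and the change from day 2 to day 10 was -0.12 ± 0.17 (adjusted p = 0.718). With scan day in the fit the fall into day 0 had an adjusted p of 0.0866. Wnk1, a kinase upstream of this cotransporter, changed by -0.47 ± 0.18 and 0.60 ± 0.18 in the same comparisons (adjusted p = 0.0428 and 0.0161), while Stk39, the kinase that acts on it directly, fell by 1.00 ± 0.20 into day 0 (0.000377) and did not pass from day 0 to day 2 (-0.33 ± 0.20, 0.296). Sgk1, a kinase that regulates several ion and amino acid carriers, fell by 1.96 ± 0.12 into day 0 (1.57e-11) and changed by -0.12 ± 0.12 into day 2 (0.573).

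Slc8a1, the sodium-calcium exchanger that expels calcium, read 305, 297 and 197 units on day -2, 871, 788 and 623 on day 0, 405, 466 and 427 on day 2 and 774, 824 and 836 on day 10. Day 0 and day 10 were high, day 2 lay between them and day -2, and no day 2 array overlapped those of the other 3 days. The changes were 1.53 ± 0.19 into day 0 (adjusted p = 1.01e-06), -0.80 ± 0.19 into day 2 (0.00323) and 0.91 ± 0.19 from day 2 to day 10 (0.00211), and day 10 was 3.11-fold above day -2 (1.63 ± 0.19, 1.94e-07). Only the last of these 4 calls passed with scan day in the fit, the others having adjusted p values of 0.0557, 0.378 and 0.259. Its other 2 probe sets were too dim to test. The scaffold Slc9a3r1 (NHERF1), which anchors sodium-proton exchangers, was 2691, 2521 and 2896 units on day -2 and 1104, 1187 and 1058 on day 0, without overlap, a fall of 1.28 ± 0.16 (adjusted p = 9.79e-07, and 0.221 with scan day in the fit). It was 1.31 ± 0.16 lower on day 10 than on day -2 (log2 change -1.31, adjusted p = 3.67e-07). In between, a rise into day 2 (0.56 to 0.73 over the alternatives) and a fall from day 2 to day 10 (-0.95 to -0.54) were called. Neither of these steps passed with scan day in the fit.

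Among 7 tested genes of the sodium, potassium and calcium pumps, which build the gradients these carriers use, 2 rose and 2 fell into day 0, 4 rose into day 2 and 2 rose from day 2 to day 10. Of all tested probe sets, 32.6%, 21.6% and 13.8% were called in these comparisons, in either direction. The calcium pump Atp2a1 of the sarcoplasmic reticulum went from a mean of 370 units on day -2 to 2520 on day 0 and 21200 on day 2, changes of 2.82 ± 0.22 (adjusted p = 6.53e-10) and 3.09 ± 0.22 (1.74e-10). Its relative Atp2a2 changed by 1.44 ± 0.11 and 1.93 ± 0.11 (8.36e-10 and 5.78e-12), so both calcium pumps rose across days on which Slc8a1 first rose and then fell.

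Phosphate uptake rests here on 1 tested probe set, Slc20a1 (PiT-1), a sodium-phosphate cotransporter. Its arrays read 5151, 6342 and 5978 units on day -2, 11880, 13502 and 11756 on day 0, 6544, 6258 and 6744 on day 2 and 3368, 3152 and 3838 on day 10. The 3 day 0 arrays stood above all 21 others, and the day 10 arrays lay below all of days -2, 0 and 2. It rose 2.13-fold into day 0 (1.09 ± 0.12, adjusted p = 9.92e-08), fell by 0.92 ± 0.12 into day 2 (1.9e-06) and by 0.92 ± 0.12 again from day 2 to day 10 (8.09e-06). All 4 of its calls, the fall of 0.75 ± 0.12 from day -2 to day 10 included (adjusted p = 1.1e-05), passed in every alternative.

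**Figure D3:**
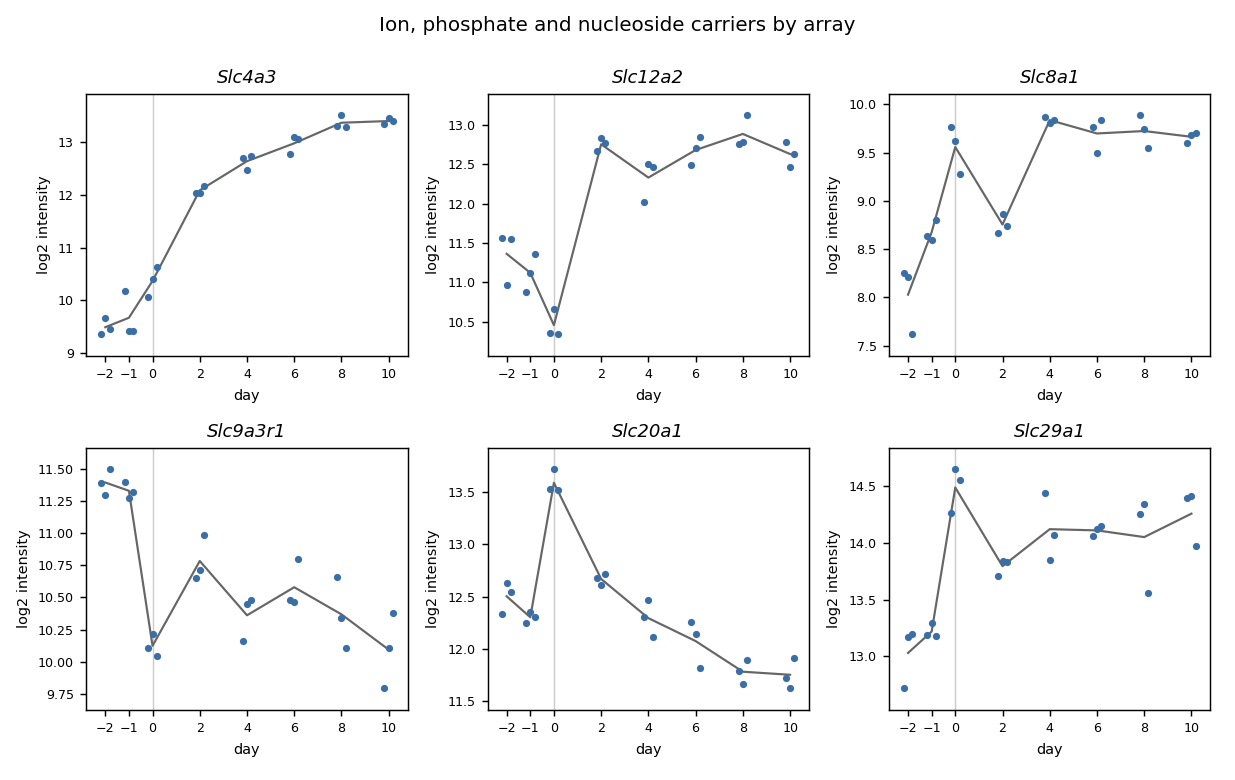
Log2 intensity (y axis) of 6 members against day (x axis), with 1 point per array and a line through the daily means. Slc4a3 climbs throughout, Slc12a2 is lowest on day 0 and high from day 2, and Slc20a1 and Slc29a1 have their highest mean on day 0.

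Amino acid carriers, grouped by series, had 42 probe sets, 25 tested and 13 (52.0%) past the F test, beside 55.2% of all tested probe sets. The group includes the monoamine carriers Slc6a2, Slc6a3 and Slc6a4 of the Slc6 series, and a probe set of Slc6a2 is among the 13 (adjusted p = 0.0403). Into day 0, 2 rose and 3 fell, and into day 2, 5 rose and none fell. The 3 that fell, Slc3a2, Slc7a5 and Slc38a2, were also among the 5 that rose, in a pair of comparisons that share the day 0 arrays. Slc3a2 (CD98 heavy chain) read 12430, 14357 and 14924 units on day -2, 8191, 9258 and 8650 on day 0 and 13223, 14162 and 14244 on day 2. The day 0 arrays were the low ones and overlapped neither neighbour. Its changes were -0.67 ± 0.10 (adjusted p = 1.88e-05) and 0.67 ± 0.10 (3.15e-05).

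Slc7a5 (LAT1), the leucine carrier that pairs with Slc3a2, read 12806, 16671 and 16212 units on day -2, 9525, 11677 and 10341 on day 0 and 14510, 14006 and 16924 on day 2. The day 0 arrays again lay below those of both neighbours. Its changes were -0.53 ± 0.10 (adjusted p = 0.000203) and 0.53 ± 0.10 (0.00034). Slc38a2 (SNAT2), a sodium-coupled carrier of small neutral amino acids that is induced when amino acids are short, read 4080, 2828 and 3564 units on day 0 and 6070, 6277 and 5522 on day 2, without overlap. It rose by 0.78 ± 0.15 (adjusted p = 0.000309) and then fell by 0.71 ± 0.15 to day 10 (0.00182). Its fall of 0.45 ± 0.15 into day 0 (adjusted p = 0.022) was lost without day -2 replicate 1, day -2 replicate 3 or day 0 replicate 2 (0.0556 to 0.155). With scan day in the fit the changes into day 0 of all 3 carriers, the rise of Slc3a2 (adjusted p = 0.061) and the late fall of Slc38a2 (0.254) did not pass.

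Of 14 tested genes of the amino acid and stress response, 8 fell and 1 rose into day 0, with a median change of -0.75, and 6 rose and 1 fell into day 2, with a median of 0.51. Over all tested probe sets, 16.1% fell and 16.5% rose into day 0, and 11.2% rose and 10.4% fell into day 2. The serine synthesis enzyme Psat1 changed by -1.55 ± 0.12 into day 0 (adjusted p = 3.1e-10) and then by 1.32 ± 0.12 (6.21e-09). The serine phosphatase Psph changed by -1.35 ± 0.12 and 0.85 ± 0.12 (3.39e-09 and 6.52e-06). Not all members returned: Trib3, a kinase-like inhibitor induced by stress, fell by 1.61 ± 0.45 into day 0 (0.00765) with no call into day 2 (1.03 ± 0.45, 0.116). The transcription factor Atf3 fell by 0.98 ± 0.21 (0.000644), changed by -0.07 ± 0.21 into day 2 (0.884) and was lower on day 10 than on day -2 (-1.56 ± 0.21, 1.27e-06). The transcription factor Atf4, which acts on these genes, changed by -0.21 ± 0.10 and 0.10 ± 0.10 in its mRNA (adjusted p = 0.132 and 0.601). The alternative fits, scan day included, were not followed for the genes of this list.

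The Slc6 carriers of taurine, creatine and glycine were each higher on day 10 than on day -2. Slc6a6 (taurine) read 8482, 8683 and 9068 units on day -2, 11370, 13923 and 10844 on day 0, 18889, 17884 and 18106 on day 2 and 15864, 15735 and 17775 on day 10. The day -2, day 0 and day 2 arrays did not overlap, and day 2 was the highest of these. It rose by 0.45 ± 0.10 (adjusted p = 0.000885, and 0.554 with scan day in the fit) and 0.61 ± 0.10 (5.49e-05), and day 10 was 1.88-fold above day -2 (0.91 ± 0.10, 6.19e-08). A dimmer probe set of Slc6a6 differed among the days, but its change from day -2 to day 10 did not pass (0.64, adjusted p = 0.0926).

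Slc6a8 (creatine, the substrate of muscle creatine kinase) read 1085, 949.6 and 1014 units on day -2, 1738, 2586 and 2097 on day 0, 1523, 1840 and 1426 on day 2 and 1754, 1437 and 1935 on day 10. The day -2 arrays were the low ones, and the later days overlapped. It rose by 1.06 ± 0.15 into day 0 (adjusted p = 5.94e-06, and 0.06 with scan day in the fit) and stood 0.74 ± 0.15 above day -2 on day 10 (0.000274). Slc6a9 (glycine) rose by 0.73 ± 0.14 into day 2 (adjusted p = 0.000311), from 2570, 2118 and 2074 units to 4199, 3683 and 3310, without overlap, and was 0.75 ± 0.14 higher on day 10 than on day -2 (8.47e-05).

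**Figure D4:**
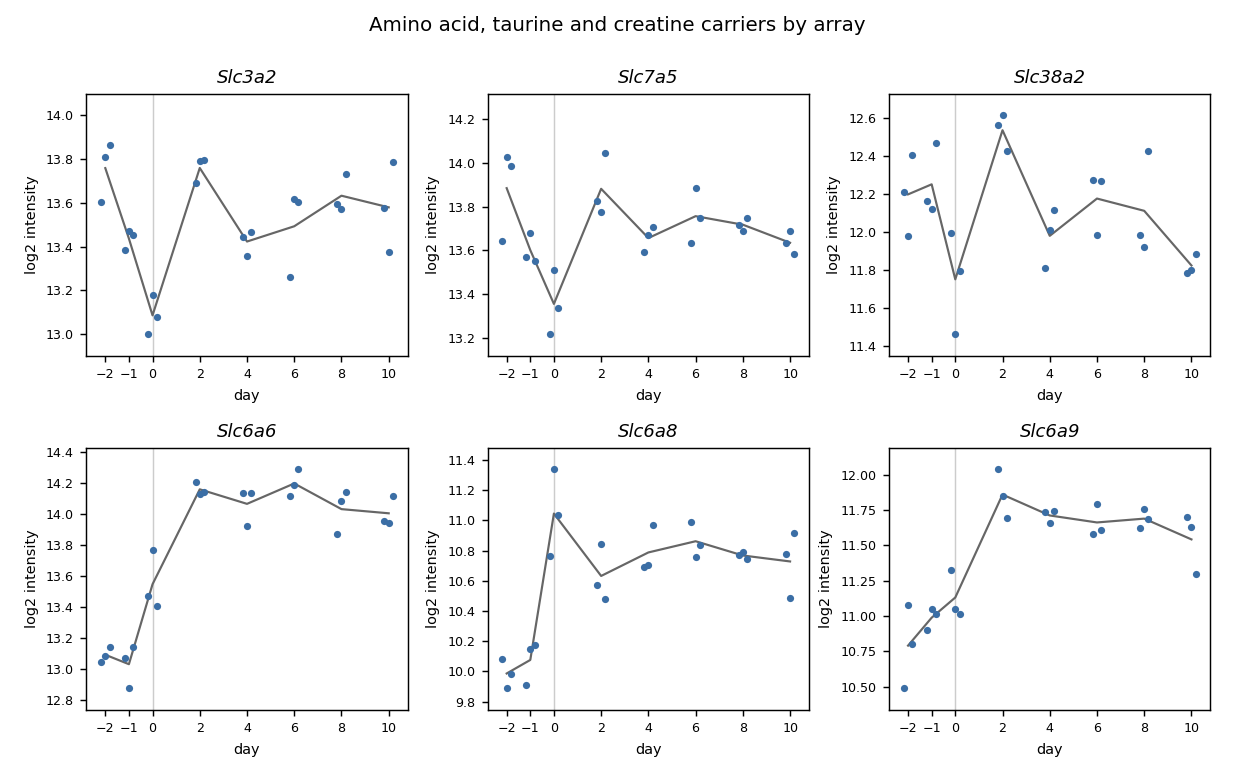
Log2 intensity (y axis) of 6 amino acid, taurine and creatine carriers against day (x axis), with 1 point per array and a line through the daily means. Slc3a2, Slc7a5 and Slc38a2 have their lowest mean on day 0, and Slc6a6 and Slc6a9 are higher from day 2 on.

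The largest rise called in the family from day -2 to day 10 was that of Slc7a7, which pairs with Slc3a2 to exchange cationic for neutral amino acids. It read 35.7, 49.1 and 29.4 units on day -2, all below the floor, 273, 324 and 62.7 on day 2 and 293, 554 and 509 on day 10. All 3 day 10 arrays lay above the day -2 arrays, and the rise was at least 5.66-fold (2.50 ± 0.49 from the floor, adjusted p = 0.000183). The size depends on the floor, with 3.55 at the 5th percentile and 0.65 at the 40th (adjusted p = 0.0379). Macrophages also express Slc7a7. Of their 6 markers, Csf1r and Cd68 could be tested and passed in no comparison (0.05 ± 0.45 and -0.43 ± 0.66 from day -2 to day 10, adjusted p = 0.948 and 0.647), and Ptprc, Itgam, Lyz2 and Adgre1 lay at the floor on 22, 21, 24 and 17 of the 24 arrays. The summed intensity of the 6 was 567 to 938 units on day -2 and 548 to 912 on day 10, and their part in the rise of Slc7a7 was not tested.

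Slc7a6, the close relative of Slc7a7 with the same partner, went the other way, from 674, 691 and 457 units on day -2 to 249.7, 209 and 316 on day 10. The groups did not overlap, and it fell by 1.23 ± 0.29 (adjusted p = 0.00129), while its dimmer probe set did not pass (-0.37, 0.563). Slc38a10, of the same series as Slc38a2, rose by 0.51 ± 0.12 from day 2 to day 10 (adjusted p = 0.00393, and 0.0706 with scan day in the fit) and by 0.51 ± 0.12 from day -2 to day 10 (0.00089). The neutral amino acid carriers Slc1a4 and Slc38a4 and the arginine carrier Slc7a1 passed no test. Slc7a5 and Slc38a2 were 0.25 ± 0.10 and 0.37 ± 0.15 lower on day 10 than on day -2 by log2 changes of -0.25 and -0.37 (adjusted p = 0.0469 and 0.0438), calls that leaving out 1 of 17 and 1 of 6 arrays ended (up to 0.204 and 0.203).

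Carriers of glucose and other sugars, grouped as the Slc2 and Slc5 series, had 6 of 12 probe sets tested and 2 past the F test. The 2 are 33.3% of those tested, beside 55.2% of all tested probe sets. The 6 include Slc2a5, a fructose carrier, and Slc5a6, which carries vitamins. Slc2a1 (GLUT1), the carrier of most growing cells, read 2741, 2753 and 3664 units on day -2, 3009, 3557 and 2833 on day 0, 1905, 2200 and 1783 on day 2 and 1375, 1051 and 1230 on day 10. The first 2 of these days overlapped, and day 2 and then day 10 lay below them without overlap. The course was not steady. Day -1, at 1876, 2084 and 2368 units, lay below both day -2 and day 0. The lowest mean was 966 units on day 4, followed by 1547 on day 6. It was 2.50-fold lower on day 10 than on day -2 (-1.32 ± 0.21, adjusted p = 1.18e-05). The steps on the way, -0.67 ± 0.21 into day 2 (adjusted p = 0.02) and -0.69 ± 0.21 from day 2 to day 10 (0.0267), rested on single arrays: the first was lost without day 0 replicate 2, day 2 replicate 1 or day 2 replicate 3 (0.0592 to 0.0922), the second without day 2 replicate 1 or 2 or day 10 replicate 2 or 3 (0.0508 to 0.117), and neither passed with scan day in the fit (0.302 and 0.177).

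Slc2a8, an intracellular glucose carrier, was higher on day 10 than on day -2, at 1366, 1491 and 1288 units against 999, 852 and 780.0, without overlap (0.66 ± 0.17, adjusted p = 0.0033, and 0.105 with scan day in the fit). Its rise into day 0 (0.54 ± 0.17, adjusted p = 0.0197) was lost without day -2 replicate 2 or 3 or day 0 replicate 1 or 3 (0.0532 to 0.0946). Slc2a3 (GLUT3) passed no test in either of its probe sets. Slc5a6, a sodium-coupled carrier of biotin and pantothenate, gave the only rise of the group into day 2, of 0.86 ± 0.25 (adjusted p = 0.0136), a call lost without day 0 replicate 2, day 2 replicate 2 or day 2 replicate 3 (0.0641 to 0.0842) and with scan day in the fit (0.886). It did not pass the F test over the days (adjusted p = 0.0662).

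Of 14 tested glycolysis genes, 4 rose and 2 fell into day 2, and 5 were higher and 4 lower on day 10 than on day -2, with a median change of -0.22. Among all tested probe sets, 21.6% were called into day 2 and 44.6% from day -2 to day 10 (22.3% higher, 22.4% lower). The muscle enzyme Pfkm rose by 2.76 ± 0.16 into day 2 (adjusted p = 2.58e-12), and Pgam2, at the floor on 2 of the 3 day 0 arrays, by at least 4.87 ± 0.16 (1.9e-16). Hexokinase 2, Hk2, fell by 0.97 ± 0.14 in the same comparison (1.24e-05). Of 12 tested genes of insulin signalling and GLUT4 traffic, 6 were higher and 1 lower on day 10 than on day -2 (median 0.21), among them the kinase Akt2 at 1.29 ± 0.14 (adjusted p = 6.71e-08), on an array where GLUT4 itself was too dim to follow.

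Lactate carriers had 2 of 3 probe sets tested. Slc16a1 (MCT1) went from 399, 395 and 409 units on day -2 to 308, 188 and 123 on day 10, without overlap, a change of -1.06 ± 0.41 (adjusted p = 0.0381). The call was lost without any 1 of the 3 day -2 arrays or of day 10 replicates 2 and 3 (0.0721 to 0.185). Basigin, Bsg, which chaperones it to the surface, did not pass in any comparison (0.19 ± 0.11 from day -2 to day 10, adjusted p = 0.184). Embigin, Emb, a chaperone of related carriers, fell by 1.38 ± 0.46 into day 2 (0.032) and was 2.08 ± 0.46 lower by day 10 (log2 change -2.08, adjusted p = 0.000632).

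Fatty acid carriers had 2 of 5 probe sets tested, and 1 changed. Slc27a1 (FATP1) read 1252, 1026 and 1432 units on day -2, 2522, 2430 and 1682 on day 0, 446, 382 and 579.5 on day 2, and 1351, 1693 and 1408 on day 10. The 3 day 2 arrays lay below all other arrays, and day 4 was back at 2328, 2012 and 1968 units. It rose by 0.83 ± 0.17 into day 0 (adjusted p = 0.000565, and 0.492 with scan day in the fit), was 4.71-fold lower on day 2 (-2.24 ± 0.17, 6.97e-10) and rose 3.20-fold from day 2 to day 10 (1.68 ± 0.17, 4.59e-07). Day 10 and day -2 overlapped (0.27 ± 0.17, adjusted p = 0.226). Slc27a4, its relative, passed no test, and the other 3 members were too dim.

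Genes of fatty acid uptake and oxidation did not all move with Slc27a1. Of 8 tested, 3 rose and 2 fell into day 0, and 4 rose and 2 fell into day 2. In either direction, 32.6% and 21.6% of all tested probe sets were called in these comparisons. Lipoprotein lipase, Lpl, rose by 3.10 ± 0.40 into day 0 (adjusted p = 1.28e-06) and fell by 4.33 ± 0.40 into day 2 (1.06e-08). The carnitine transferase Cpt1a rose by 0.83 ± 0.19 (0.00159) and fell by 2.35 ± 0.19 (1.65e-09) in the same comparisons. The muscle fatty acid binding protein Fabp3 rose by 2.46 ± 0.33 into day 2 (4.94e-06). Adipocytes express Slc27a1 and Lpl as well. Their 6 markers on the array, Lpl among them, summed to 1818 to 2439 units on day -2, 6671 to 6809 on day 0, 1672 to 2205 on day 2 and 3559 to 3948 on day 10, and of 3 tested, 2 rose and 1 fell into day 0 and none rose and 2 fell into day 2. Cebpa, an adipogenic transcription factor among the 3, changed by 1.63 ± 0.11 into day 0 (4.59e-11), -1.32 ± 0.11 into day 2 (2.01e-09) and 1.19 ± 0.11 from day 2 to day 10 (9.41e-08). Pparg, another such factor and the one of the 3 that fell into day 0, went by -1.02 ± 0.38 (0.0444). It changed by -0.87 ± 0.38 into day 2 (0.12). From day -2 to day 10 its log2 change was -2.42 ± 0.38 (1.43e-05), with all 3 day 10 arrays at the floor. Fabp4, Retn and Adipoq were too dim to test and lay at the floor on 11, 21 and 3 arrays. The part of such cells in the course of Slc27a1 was not tested, and in bulk RNA a change in the share of a cell type and a change per cell cannot be told apart.

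**Figure D5:**
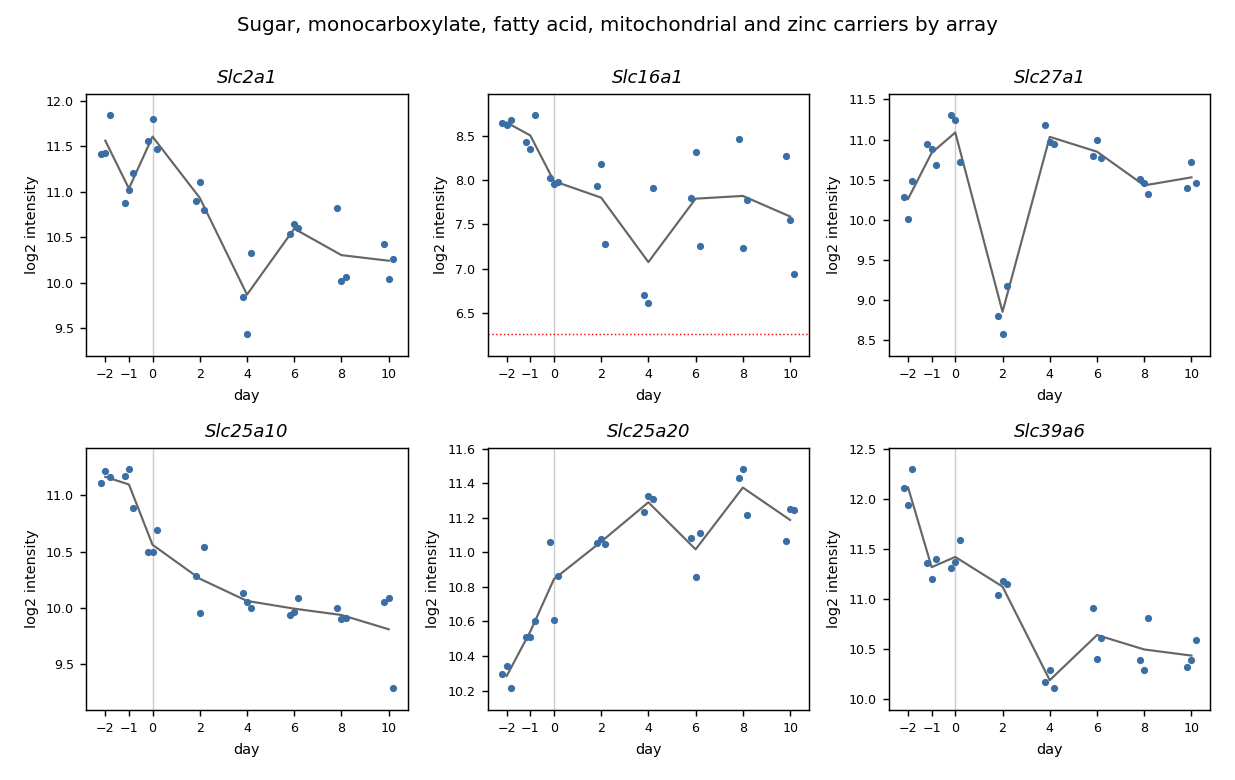
Log2 intensity (y axis) of 6 carriers of glucose, lactate, fatty acids, mitochondrial substrates and zinc against day (x axis), with 1 point per array and a line through the daily means. The dotted line in the Slc16a1 panel is the floor at 6.27. Slc27a1 drops on day 2 alone, Slc2a1, Slc25a10 and Slc39a6 end lower than they began, and Slc25a20 ends higher.

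Mitochondrial carriers were nearly all measurable, with 22 of 24 probe sets tested, 9 past the F test and 5 higher and 6 lower on day 10 than on day -2. The 9 are 40.9% of those tested, beside 55.2% of all tested probe sets. From day -2 to day 10, 11 of the 22 were called, beside 44.6% of all tested probe sets. Into day 0, 2 rose and 5 fell, 31.8% of those tested, beside 32.6% of all tested probe sets. Slc25a20, which brings acylcarnitines into the matrix for oxidation, read 1258, 1297 and 1188 units on day -2, 2136, 1561 and 1862 on day 0 and 2143, 2433 and 2428 on day 10. The day -2 arrays lay below all others of these days, and it rose by 0.56 ± 0.12 into day 0 (adjusted p = 0.000629, and 0.192 with scan day in the fit) and by 0.90 ± 0.12 to day 10 (1.02e-06). Slc25a10, which exchanges dicarboxylates for phosphate, went from 2208, 2380 and 2298 units on day -2 to 1445, 1444 and 1652 on day 0 and 1062, 1090 and 626 on day 10, each day below the last. It fell by 0.60 ± 0.18 (adjusted p = 0.00986, and 0.489 with scan day in the fit) and by 1.35 ± 0.18 in all (9.33e-07).

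The muscle and heart form of the ADP/ATP carrier, Slc25a4, was 22586, 20895 and 23797 units on day -2 and 14985, 17124 and 16680 on day 10. These groups did not overlap, and it fell by 0.37 ± 0.09 into day 0 (adjusted p = 0.00157, and 0.319 with scan day in the fit) and by 0.46 ± 0.09 over the whole course (0.000106). Its relative Slc25a5 passed no test in 2 probe sets, of which the brighter may share probes with related sequences by its Affymetrix name. Slc25a39, linked to glutathione import, fell by 0.48 ± 0.09 into day 0 (adjusted p = 0.000292, and 0.499 with scan day in the fit) and was lower by day 10, from 7516, 7817 and 7633 units to 4578, 4561 and 4514 (-0.75 ± 0.09, adjusted p = 5.06e-07).

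Of the other mitochondrial members named, Slc25a25, a calcium-regulated carrier of ATP and phosphate, was lower by 0.68 ± 0.19 on day 10 than on day -2 (log2 change -0.68, adjusted p = 0.00463, and 0.0823 with scan day in the fit). This call did not pass with chip lot in the fit either (adjusted p = 0.0921). Slc25a36, which carries pyrimidine nucleotides, rose by 0.53 ± 0.13 into day 0 (0.00346, and 0.188 with scan day in the fit). Calls of the brighter probe set of Slc25a1 (citrate) and of Slc25a14, Slc25a15 (ornithine) and Slc25a17, a peroxisomal member of the series, were each lost without 1 of 3 or more arrays (adjusted p up to 0.176, 0.139, 0.159 and 0.183). So were those of Slc25a36 after day 0 (up to 0.166). The other probe set of Slc25a1 was higher on day 10 than on day -2 by 0.68 ± 0.19 (adjusted p = 0.00469), and alternatives were not run on it. The phosphate carrier Slc25a3 passed no test, on a probe set whose 3 day 2 arrays read 921, 767 and 144 units.

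Outside the carriers, 9 tested mitochondrial membrane genes gave 2 higher and 3 lower on day 10 than on day -2 (median -0.14). This comparison called 44.6% of all tested probe sets. The lower were Timm9, a chaperone of carrier import, at -1.50 ± 0.32 (adjusted p = 0.000474), the outer membrane channel Vdac2 at -0.60 ± 0.18 (0.00972) and citrate synthase, Cs, at -0.57 ± 0.10 (3.27e-05). Mtch1, a carrier-like protein of the outer membrane, was among the higher at 1.48 ± 0.14 (4.22e-09).

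Metal carriers had 19 of 23 probe sets tested, and 5 differed among the days, 26.3% of those tested, beside 55.2% of all tested probe sets. Slc39a6 (ZIP6), a zinc importer of the plasma membrane, read 4439, 3930 and 5035 units on day -2, 2538, 2638 and 3074 on day 0, 2108, 2315 and 2272 on day 2 and 1273, 1338 and 1543 on day 10. Each of these days lay below the one before without overlap. It was 3.22-fold lower on day 10 than on day -2 (-1.69 ± 0.15, adjusted p = 1.47e-09). Its steps of -0.70 ± 0.15 into day 0 (adjusted p = 0.000607) and -0.69 ± 0.15 from day 2 to day 10 (0.00216) did not pass with scan day in the fit (0.191 and 0.296).

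Slc30a3, a zinc carrier known from synaptic vesicles, rose from 3368, 3866 and 2487 units on day -2 to 7796, 6952 and 5718 on day 10, without overlap (1.09 ± 0.19, adjusted p = 5.11e-05). Its step into day 0 (0.54 ± 0.19, 0.0315) was lost without day -2 replicate 3 or day 0 replicate 3 (0.156 and 0.201, one each), and was 1.30 with an adjusted p of 0.108 with scan day in the fit. Slc11a2 (DMT1), the iron importer, read 2560, 2622 and 2550 units on day -2, 1624, 2055 and 1604 on day 0 and 2773, 3082 and 2937 on day 2. The day 0 arrays were the low ones, and the changes were -0.56 ± 0.14 (adjusted p = 0.00262, and 0.398 with scan day in the fit) and 0.74 ± 0.14 (0.000255). Its other probe set did not pass in any comparison, with changes of -0.03 and 0.08 in the same pair.

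Slc41a1, a magnesium carrier, also dipped on day 0, by 0.68 ± 0.22 (adjusted p = 0.0178), and rose into day 2 by 0.78 ± 0.22 (0.011). The dip was lost without day -2 replicate 3 or day 0 replicate 1 (0.0734 to 0.0945), the rise without day 0 replicate 1 (0.0507), and neither passed with scan day in the fit (0.494 and 0.298). Slc41a1 did not pass the F test over the days (adjusted p = 0.0527). Slc39a7 (ZIP7), which releases zinc from the endoplasmic reticulum, was instead high on day 0, at 9098, 10158 and 9432 units, and fell by 0.42 ± 0.11 into day 2 (adjusted p = 0.0072, and 0.0863 with scan day in the fit). Its rise into day 0 (0.36 ± 0.11, 0.013) was lost without day -2 replicate 3 or day 0 replicate 2 (0.0577 to 0.08). Slc30a9 was 0.91 ± 0.23 higher on day 10 than on day -2 (adjusted p = 0.00266, and 0.0663 with scan day in the fit), while the calls of the zinc importers Slc39a1 and Slc39a3 were lost without 1 of 3 and 1 of 5 arrays (up to 0.178 and 0.123). Slc39a1 and Slc39a3 did not pass the F test over the days either (adjusted p = 0.0664 and 0.0602).

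Of 10 tested genes of iron, zinc and copper handling, none rose and 5 fell into day 2, and 3 rose and none fell from day 2 to day 10. Over all tested probe sets, 11.2% rose and 10.4% fell into day 2, and 6.53% rose and 7.27% fell later. Metallothioneins Mt1 and Mt2, which bind zinc and copper, were on average at 12400 and 14700 units on day 0, 2010 and 1960 on day 2 and 5710 and 8610 on day 10. Ceruloplasmin, Cp, a copper-binding ferroxidase, fell by 1.96 ± 0.34 into day 2 (adjusted p = 0.000109) and rose by 3.10 ± 0.34 from day 2 to day 10 (9.59e-07). The log2 changes of Mt1 and Mt2 into day 2 were -2.62 ± 0.13 and -2.90 ± 0.11 (adjusted p = 3.02e-13 and 1.36e-15), on the day when Slc27a1 was also at its lowest.

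Nucleoside and nucleotide sugar carriers had 14 of 15 probe sets tested, with 3 higher and none lower on day 0 than on day -2. The 3 are 21.4% of those tested, beside 32.6% of all tested probe sets (16.5% higher and 16.1% lower). Slc29a1 (ENT1), the equilibrative nucleoside carrier, read 6748, 9205 and 9406 units on day -2, 19629, 25679 and 24116 on day 0, 13382, 14671 and 14610 on day 2 and 21522, 21778 and 16050 on day 10. Day 0 and day 10 were high and overlapped, and day 2 lay between them and day -2 without overlap. It rose 2.75-fold into day 0 (1.46 ± 0.17, adjusted p = 5.04e-07), fell by 0.69 ± 0.17 into day 2 (0.00489) and stood 1.23 ± 0.17 above day -2 on day 10 (3.25e-06). These 3 calls passed in every alternative fit. A second probe set, which never exceeded a daily mean of 466 units, passed no test.

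Slc35b2, which supplies the Golgi with the sulfate donor for proteoglycans, read 1673, 2034 and 2229 units on day -2, 2989, 3913 and 3088 on day 0, 1935, 2193 and 2445 on day 2 and 3797, 2813 and 3664 on day 10. Day 0 and day 10 did not overlap day -2 or day 2. The changes were 0.75 ± 0.15 (adjusted p = 0.000377), -0.60 ± 0.15 (0.00487) and 0.64 ± 0.15 (0.00511), none of which passed with scan day in the fit (0.222, 0.147 and 0.0511), and day 10 was 0.79 ± 0.15 above day -2 (0.000138). Slc35b1 was 0.30 ± 0.09 higher on day 10 (0.00795), a call lost without day -2 replicate 1 (0.0581), and its rise of 0.25 ± 0.09 into day 0 (0.0302) was lost without day -2 replicate 1 or 2 or day 0 replicate 2 or 3 (0.0743 to 0.162). Neither call of Slc35b1 passed with chip lot or with scan day in the fit. Calls of Slc35d1 and Slc35e4 in day 10 against day -2 were lost without 1 of 10 and 1 of 3 arrays (up to 0.163 and 0.226). Both were also lost with chip lot and with scan day in the fit.

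The carriers of organic ions, vitamins and other substrates had 22 of 39 probe sets tested and 14 past the F test. The 14 are 63.6% of those tested, beside 55.2% of all tested probe sets. Slc19a1, the reduced folate carrier, has 2 probe sets. The brighter on day -2 read 2398, 3813 and 3455 units on day -2, 442, 797 and 949.7 on day 0 and 198, 216 and 664 on day 10. The groups of day -2 and day 0 did not overlap, and it was 4.55-fold lower on day 0 (-2.19 ± 0.45, adjusted p = 0.000466, and 0.463 with scan day in the fit) and 10.4-fold lower on day 10 (-3.37 ± 0.45, 1.26e-06). With scan day in the fit these changes were -1.43 and -2.46, the second with an adjusted p of 0.00256. The other, which by its Affymetrix name may share probes with related sequences, was 1.84-fold lower on day 10 (-0.88 ± 0.23, 0.00255). Its change into day 0 (-0.68 ± 0.23, 0.0221) was lost without day -2 replicate 1 or 2 or day 0 replicate 2 or 3 (0.0531 to 0.104), so the probe sets agreed in direction and not in size.

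Slc48a1, the heme carrier of endosomes and lysosomes, went from 3512, 3666 and 3506 units on day -2 to 1296, 1257 and 1462 on day 0 and stayed at 1053, 1261 and 1374 on day 10. Day -2 stood apart from both, with changes of -1.41 ± 0.17 into day 0 (adjusted p = 4.44e-07, against -0.77 and 0.134 with scan day in the fit) and -1.54 ± 0.17 to day 10 (5.95e-08). Heme oxygenase, Hmox1, which breaks heme down, fell by 0.93 ± 0.11 into day 0 (2.53e-07) and was lower by 1.69 ± 0.11 on day 10 (log2 change -1.69, adjusted p = 5.29e-12).

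Both Slco members that changed were higher late. Slco5a1, whose substrates are not settled, read 219, 226 and 201 units on day -2, 220.0, 164 and 213 on day 0, 799, 691 and 558 on day 2 and 938, 728 and 966 on day 10. The first pair of days overlapped and lay below the second, and it rose 3.42-fold into day 2 (1.77 ± 0.22, adjusted p = 1.79e-06). Slco3a1, an organic anion carrier, rose earlier, from 231, 590.3 and 489 units on day -2 to 984, 990.2 and 1207 on day 0 and 1590, 2387 and 1318 on day 10. Day -2 did not overlap the later days, and the changes from it were 1.38 ± 0.30 (0.000929, and 0.144 with scan day in the fit) and 2.08 ± 0.30 (4.75e-06).

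Slc66a2, a lysosomal-type membrane carrier, was 1204, 1490 and 1313 units on day -2 and 3006, 2978 and 2993 on day 0, and fell to 1733, 1651 and 1424 on day 2. Day 0 was the high day, with changes of 1.17 ± 0.14 (adjusted p = 4.94e-07) and -0.91 ± 0.14 (2.86e-05), which had adjusted p values of 0.103 and 0.0574 with scan day in the fit. Day 10 was 0.69 ± 0.14 above day -2 (0.000253), and the rise from day 2 to day 10 (0.43 ± 0.14, 0.0429) was lost without 1 of 9 arrays (up to 0.218). Slc44a1, a choline carrier, fell by 0.85 ± 0.20 into day 2 (0.0028, and 0.216 with scan day in the fit), and its 3 day 2 arrays read 1288, 1319 and 1276 units against 2611, 2286 and 2129 on day 0.

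Slc22a17, a receptor for lipocalin, read 1497, 864 and 925 units on day 10 against 116, 968 and 300.3 on day -2. The groups overlapped through 1 day -2 array, and the change was 1.72 ± 0.44 (adjusted p = 0.00264). It was 0.98 without day -2 replicate 1 (0.0314), 2.51 without day -2 replicate 2 and 2.56 with scan day in the fit. Slc22a2, an organic cation carrier, rose into day 2 by 1.60 ± 0.45 (0.0105), which was lost without day 0 replicate 3 or day 2 replicate 2 (0.0569 and 0.0603, one each) and with the floor at the 40th percentile (0.30, 0.278). This rise did not pass with chip lot or with scan day in the fit either. A rise of Slc50a1 from day 2 to day 10 (0.42 ± 0.13, 0.0297) was lost without 1 of 5 arrays (up to 0.135). It was also lost with chip lot or scan day in the fit (0.20 and adjusted p = 0.721 with scan day). Slc22a5, the carnitine carrier of the plasma membrane, passed no test, in contrast to Slc25a20, the carnitine carrier of mitochondria.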

How the data were processed

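The authors deposited 1 linear intensity for every probe set of each array. The method that summarised probes is not given in the sources used here. Each array's trimmed mean (2% trim) was 1499.69 to 1499.73 units, so the deposited intensities had been scaled to a common level. Probe sets were named by GEO's platform annotation, with symbols updated through gene IDs, and 66 control probe sets were left out.

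Intensities under 77.0 units, the 20th percentile, were raised to it and log2 was taken. Probe sets with a mean above the 40th percentile on at least 1 day were tested with limma 3.58.1 in R 4.3.3 (1 mean per day, all 24 arrays, trended eBayes, Benjamini-Hochberg over all 8479). A call is an adjusted p under 0.05, and every adjusted p given is from this fit unless it is said to come from an alternative. A fold is written "at least" where 2 or more arrays of the lower day were at the floor. Other steps used Python 3.11.15, pandas 2.3.3 and matplotlib 3.10.9.

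Named were, in each comparison, up to 4 called probe sets of each family with the largest changes, the genes of a list of 39 carriers whatever their result, and the 5 widest and 5 narrowest ranges past the F test. From each other gene list, up to 4 called genes with the largest changes were named. Atf4, Bsg, Wnk1, Myog, Fabp4 and the other cell type markers fall outside this rule and were chosen after their values were seen. The members, gene lists and rule were chosen with earlier results of these data known. Chip lots and scan days were read from the array information files. On simulated data the fit recovered 86% of 100 changes of 1 log2 unit and 100% of those of 2 between days 2 and 10. It made 10 false calls among 8281 probe sets. In that comparison 100 probe sets of each size were changed, whereas 55.2% of tested probe sets passed the F test on the arrays. Recovery was not given separately for dim probe sets or for arrays that share a scan day. The shares therefore describe the simulated data and do not measure how the fit performed on these arrays. Alternatives were other floors, a pseudocount, quantile scaling, no filter, the replicate number as a block, chip lot and scan day, and leaving out each array. Single calls were followed through them for the named carriers and not for the genes of other lists. The number of arrays limits the precision.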

Additional observations from a re-analysis of the deposited data

How the results depend on the processing

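With scan day as a fixed factor, 32 carriers differed among the days, against 57, and 4 passed between days -2 and 0, 13 between days 0 and 2, and 5 between days 2 and 10. The factor leaves 6 residual degrees of freedom, and day 0 then rests on its replicate 3, which shares a scan day with day 2 replicate 1. The other alternatives kept each of the 5 counts within 1.5 times. Leaving out 1 array at a time gave 52 to 59 carriers over the days, and 29 to 35, 24 to 30, 10 to 16 and 40 to 51 in the 4 comparisons. With replicate number as a block the counts were 56, 34, 27, 15 and 50. Over pairs of arrays from different days, the correlation of deviations was above 0.1 in 17 of 84 same-numbered pairs (mean 0.0333) and 13 of 168 others (mean -0.0166), and 17 of 24 arrays correlated best with their own number. This is a hint from the data that numbers share something, but the labels give no pairing and most same-numbered pairs lay under 0.1, so the numbers were not taken to pair the arrays. Of 110 calls of named genes, 44 passed in every alternative and 81 whichever array was left out, and none reversed. Scan day as a factor ended 63, chip lot 17, no filter 11 and the replicate block none. For day 0 against day -2, 3 of 32 named calls passed in every alternative, those of Slc4a3, Slc20a1 and Slc29a1. The cause of the lost calls was not tested.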
